A study of Homo sapiens with 12 samples.

Results

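The genes described here encode the factors that start and carry out protein synthesis on cytoplasmic ribosomes. They are the protein-coding genes of the read count table whose symbol begins with EIF or EEF and a digit, leaving out the EIF2AK kinases, the EIF4EBP inhibitors and any gene on chromosome Y. The rule found 61 genes among the 48162 of the table, 59 of them had at least 1 count, and 57 passed the expression filter and were tested. The 4 that were not tested were EEF1G and EEF1E1-BLOC1S5, which had no count, and EIF2S3B and EIF4E1B. The cells were T84, an established human colon carcinoma line that forms an epithelial sheet and serves as a model of the intestinal lining. Confluent T84 cells had their medium replaced by Hanks buffered saline, a salt and glucose solution without amino acids or serum, at pH 7.4 or pH 6.0, for 3 h or 6 h. Total RNA was sequenced in 4 groups of 3 libraries, which are called Con3 (pH 7.4, 3 h), Treat3 (pH 6.0, 3 h), Con6 (pH 7.4, 6 h) and Treat6 (pH 6.0, 6 h). All 4 groups were in saline, so a difference with pH is a difference between salines, and since the labels name no separate cultures behind the 3 libraries, each p-value reflects their spread alone, possibly a technical one.

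Initiation begins when eIF2, carrying the initiator methionyl tRNA, joins the small ribosomal subunit together with eIF1, eIF1A, eIF3 and eIF5. The eIF4 factors bind the cap of the mRNA, unwind it and recruit that complex, which scans to the start codon, where eIF5 makes eIF2 hydrolyse its GTP and eIF5B joins the large subunit. eEF1A then delivers each aminoacyl tRNA, eEF1B recharges eEF1A with GTP, eEF2 moves the ribosome along by a codon, and eIF5A helps it past difficult peptide bonds. Phosphorylation of eIF2 slows initiation under stress, and nutrient loss acts on eIF4E through the kinase mTOR. These controls act on proteins, which were not measured here.

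The libraries held 13912532 to 24331032 counts, with a common biological coefficient of variation of 9.29%. CPM, the share of a gene in a library's counts after scaling with edgeR's TMM factors, is relative to the other genes, so a fall in RNA per cell and a fall in the number of cells cannot be told apart. All 12 epithelial markers were found, with a summed level from 10429 to 11193 CPM in Treat6 and from 8581 to 9997.5 CPM elsewhere. The 6 leukocyte markers summed to 7.63 to 9.32 CPM in Con3, 8.24 to 11.4 CPM in Treat3, 7.18 to 9.42 CPM in Con6 and 10.5 to 11.5 CPM in Treat6, most of it from LYZ, a lysozyme gene. Among the defining leukocyte genes, PTPRC and CD68 had 0 counts in Treat3, CD68 also in Con6 and Treat6, and CD3E in Con3. The 8 fibroblast markers summed to 8.28 to 10.7 CPM in Con3 and 7.75 to 8.98 CPM in Treat3, with PDGFRA at 0 counts in Treat3. They summed to 7.36 to 32.1 CPM in Con6 and 7.81 to 10.9 CPM in Treat6. COL1A1 was highest in Con6, with 276 counts against 54 in Con3, 25 in Treat3 and 36 in Treat6. COL1A2 had 108 counts in Con6 against 14, 1 and 4 in the same order, and COL3A1 had 58 against 28, 3 and 4. The 4 endothelial markers found of 5 stayed between 9.55 and 13.7 CPM, with KDR at 0 counts outside Con3. Most of that sum was ESAM, with means of 12.7 CPM in Con3, 11.3 in Treat3, 10.4 in Con6 and 10.7 in Treat6. The part of these markers in the results was not tested.

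The factors together took 2.10% ± 0.0990 of all counts in Con3, 2.04% ± 0.0509 in Treat3, 1.99% ± 0.0503 in Con6 and 2.25% ± 0.0867 in Treat6 (SD, n = 3 each). EEF1A1, the main eEF1A gene of dividing cells, alone took 0.843% ± 0.0603, 0.859% ± 0.0217, 0.718% ± 0.0397 and 0.989% ± 0.0715 in the same order. RPKM is a level, the count per kilobase divided by the depth of the library, with 1 length per gene. By RPKM EEF1A1 led with a mean of 1919 over the 12 libraries, followed by the translocase EEF2 at 917. The next were EIF4G2, a scaffold related to eIF4G that lacks the cap-binding part, at 249.7 RPKM, the eIF4A helper EIF4H at 214 and EIF5A at 199.97. The ranges of these last members over single libraries overlapped, from 184 to 234 RPKM for EIF4H and from 151 to 253 for EIF5A, so their order is not fixed. The cap-binding protein gene EIF4E stood much lower, at 3.58 RPKM, a value made with a length of 11523 bases. EIF4E2, with a similar total (9165 counts against 8761 for EIF4E) and a length of 3525 bases, stood at 12.1 RPKM. The order by RPKM thus depends on the length taken for each gene, and whether it matches the transcripts of these cells was not tested. EEF1A2, the eEF1A gene of muscle and neurons, stood at 0.754 RPKM.

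**Figure D1:**
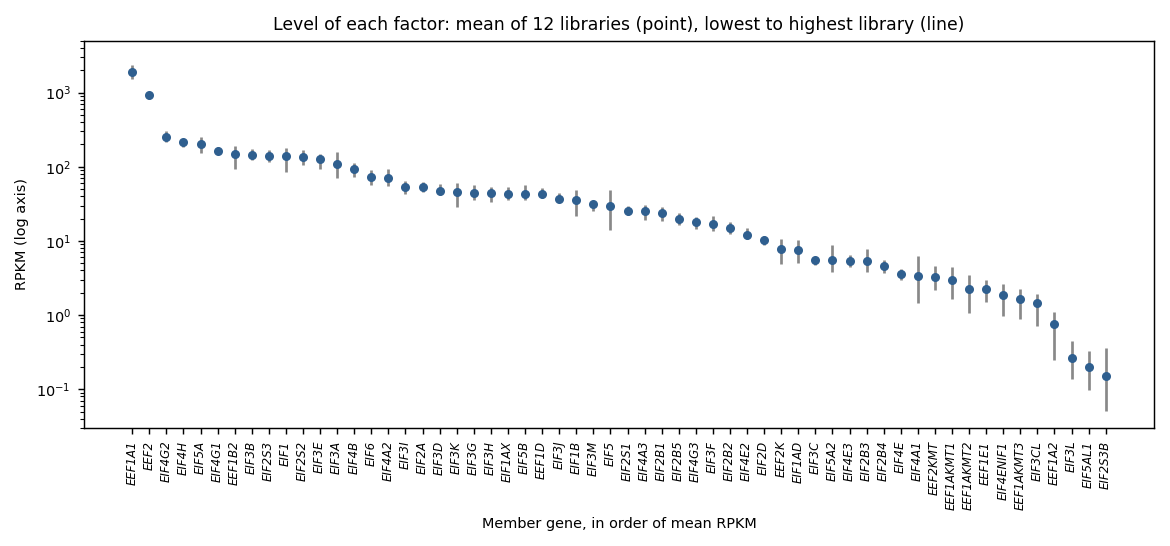
Mean RPKM of each factor over 12 libraries (points, log axis) with the lowest and highest library (lines), for the 58 members with a count in every library, in order of the mean. EEF1A1 (1919) and EEF2 (917) stand above all others, and EIF5, EIF3A and EIF4A1 have wide ranges for their level.

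Some levels are limited by how reads could be assigned, and neither the counter nor its strand setting is stated in these sources. EEF1G, a core eEF1B subunit, was listed at 0 in every library, and 99.9% of its exonic bases also belong to the annotated gene ENSG00000255508, which had 91 counts in all. The helicase gene EIF4A1 shares 41.1% of its exonic bases with ENSG00000264772, which had 5 counts in all, and EIF4A1 itself had only 1221 counts over the 12 libraries. EIF3L had 177 counts in all. EIF3C and EIF3CL are near-identical copies, EIF5AL1 is a copy of EIF5A, and EEF1A1 has many processed pseudogenes, so reads may be split between copies, and the levels of these genes are uncertain.

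Many mRNAs of the translation machinery are known to start with a C followed by a run of pyrimidines, the terminal oligopyrimidine (TOP) motif, through which mTOR and LARP1 control their translation. RefSeq start sites on GRCh38.p14 were found for 49 of the 61 members. A start with C and at least 4 more pyrimidines was found for 13 members. That was 13 of the 66 start windows of members (19.7%), against 4.07% of the 35116 start windows of all genes. The windows of 6 members are shown because their changes at 6 h span those of the TOP-like members, with 15 bases before and 15 from the start site on, and the pyrimidine run from the start in capitals. They lie at chr2:206159880-206159909 (EEF1B2, plus strand), chr19:38619173-38619202 (EIF3K, plus strand), chr6:73521018-73521047 (EEF1A1, minus strand), chr3:186783562-186783591 (EIF4A2, plus strand), chr19:3985449-3985478 (EEF2, minus strand) and chr12:53006441-53006470 (EIF4B, plus strand).
EEF1B2: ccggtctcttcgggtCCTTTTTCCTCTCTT
EIF3K: ttccgtttccaccacCTCTTCCTgttcccg
EEF1A1: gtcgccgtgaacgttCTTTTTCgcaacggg
EIF4A2: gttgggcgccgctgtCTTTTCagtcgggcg
EEF2: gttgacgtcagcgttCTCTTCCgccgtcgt
EIF4B: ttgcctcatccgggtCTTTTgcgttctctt
The run was 15 bases in EEF1B2, to the end of the window, 8 in EIF3K and 5 in EIF4B.

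At 3 h, 16 of the 57 tested factors differed between pH 6.0 and pH 7.4, and 13 of these were lower. With edgeR's quasi-likelihood test and Benjamini-Hochberg adjustment over all genes, 3 factors were higher and 13 lower at an adjusted p under 0.05, where 18.8% of all 15630 genes tested were called, 9.53% higher and 9.26% lower. The median log2 fold change was -0.09 over the factors and -0.00309 over all genes. The fall of EIF5 was the largest change, and only EIF5 and EIF4A1 passed the test with a change of at least 1.5-fold. This count rested on single libraries. Without Con3 library 1 it was 1 higher and 4 lower, without Treat3 library 2 it was 1 and 7, and without Treat3 library 3 it was 2 and 7. Calls over all genes fell in the same fits. They went from 1489 higher and 1448 lower to 779 and 882, 758 and 891, and 816 and 832. The calls of EIF5, EIF3A, EIF4B, EIF2S2 (lower) and EIF4A1 (higher) held in all 20 alternative settings.

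At 6 h the direction was mostly upward. Of the 57 factors 22 were higher and 8 lower at pH 6.0, where 47% of all genes tested were called, 21.9% higher and 25.1% lower, with medians of 0.20 over the factors and -0.000757 over all genes. A total of 5 factors were lower at both times (EIF5, EIF3A, EIF5A2, EIF4B and EIF2S2) and 1 was higher at both (EIF4A1). Another 21 were called higher at 6 h only and 8 lower at 3 h only, while no factor was called in opposite directions at both times. These joint patterns were not counted over all genes, so whether the factors differ from other genes in them was not tested. The call at 6 h held in all 20 settings for 12 of the higher and 6 of the lower factors. The 12 were EIF4A1, EIF3K, EEF1B2, EIF4A2, EEF1A1, EIF3H, EIF4A3, EIF4E, EIF6, EIF3E, EIF1AX and EIF2S1. The 6 were EIF5, EIF3A, EIF5A2, EIF4ENIF1, EIF1AD and EIF4B. The 17 factors that passed in neither pH comparison included EEF2, EEF2K, EIF4G1 and EIF5B.

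**Figure D2:**
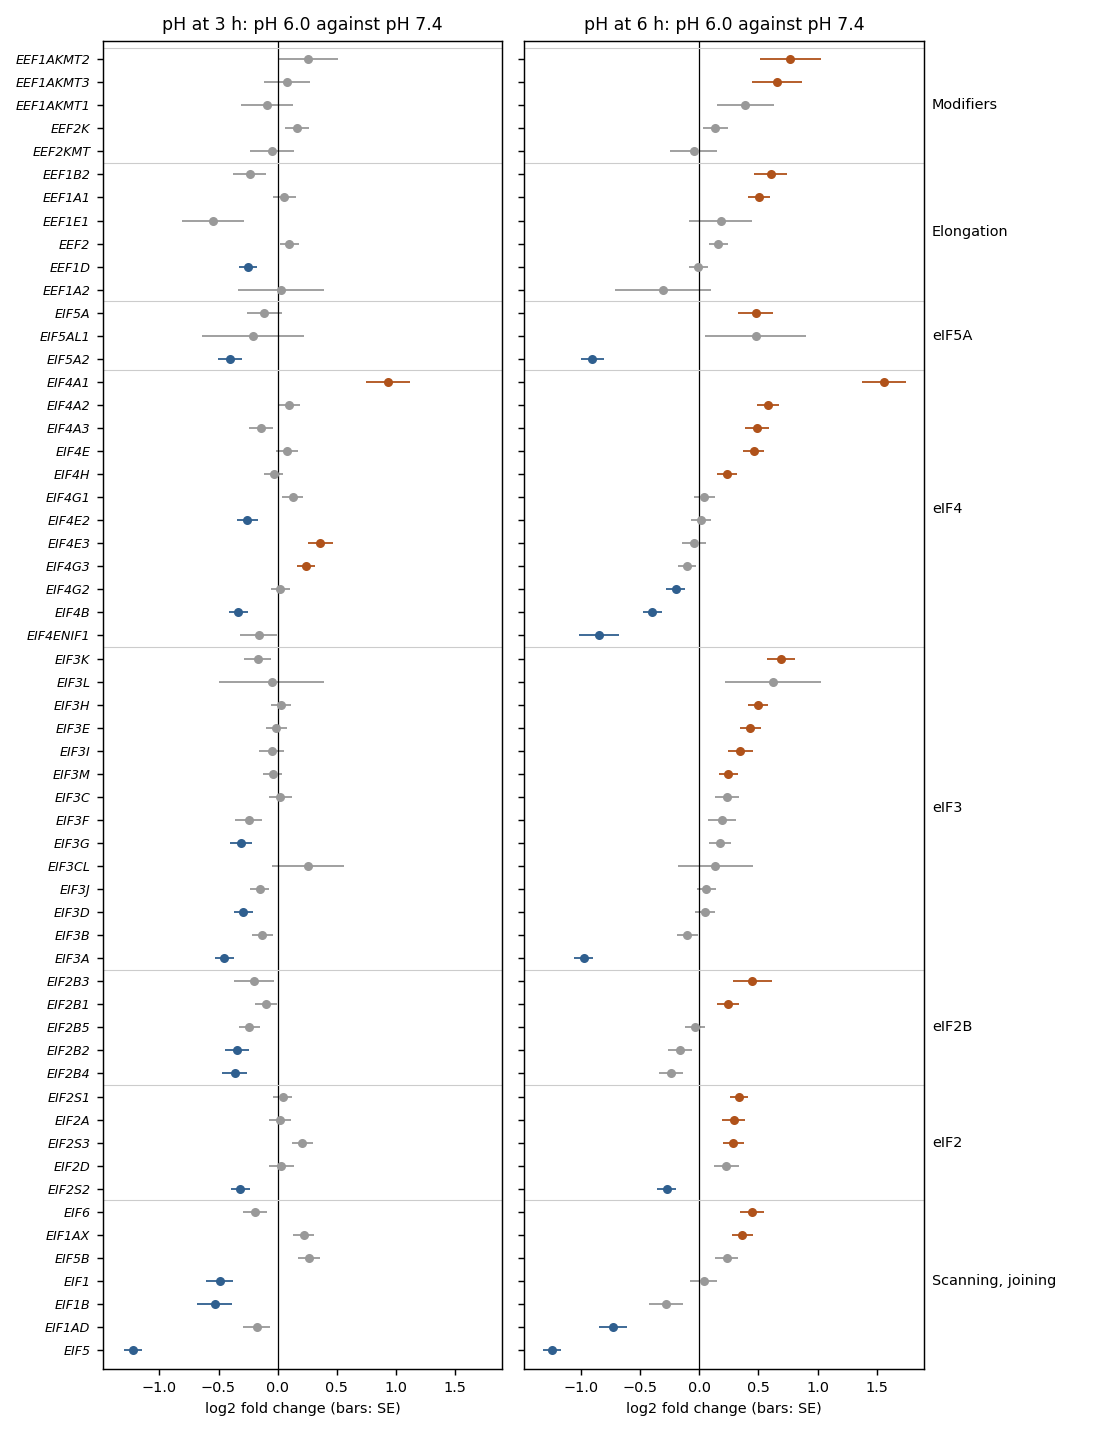
Log2 fold change at pH 6.0 against pH 7.4 at 3 h (left) and 6 h (right) for the 57 tested factors, grouped by role, with bars for the SE. Coloured points passed the test (orange higher, blue lower, adjusted p under 0.05): 3 and 13 at 3 h, 22 and 8 at 6 h.

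Among the factors of scanning, start codon choice and subunit joining, EIF5 fell at both times, 2.33-fold at 3 h and 2.37-fold at 6 h. EIF5 (ENSG00000100664, chromosome 14) encodes the protein that makes eIF2 hydrolyse GTP at the start codon. It read 279, 252 and 249.7 CPM in Con3, and 116, 106 and 112 CPM in Treat3. At 6 h it read 236, 223 and 213 CPM in Con6, and 97.3, 98.6 and 87.8 CPM in Treat6. Every library at pH 6.0 lay below every library at pH 7.4 by a wide margin. The log2 fold change was -1.22 ± 0.08 at 3 h (adjusted p = 3.05e-10 by edgeR) and -1.24 ± 0.08 at 6 h (adjusted p = 2.68e-11), and the difference between those effects was -0.02.

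The 250 bases before the 2 RefSeq starts of EIF5 and the 50 after them were searched on both strands for TGACTCA, the motif of AP-1 factors, and for TGACGT, the core of the cAMP response element. TGACTCA was found in 4.95% of all 35116 windows of 300 bases and in 3 of the 66 windows of members (4.55%), those of EIF3J, EIF4G1 and EIF5. TGACGT, which is also part of the full element TGACGTCA, was found in 7.98% of all windows and in 7 of the 66 windows of members (10.6%). These belong to 6 members, EIF5 among them. The matches of EIF5, the factor that fell most, are shown on the plus strand of chromosome 14, with the motif or its reverse complement in capitals, at chr14:103334100-103334129, chr14:103334799-103334828 and chr14:103334837-103334860.
EIF5 upstream start: gaaagatgcgatTGACGTcgcaagcgaacc
EIF5 downstream start, first match: cgccgctcgggcTGACTCAggcttcagctg
EIF5 downstream start, second match: gTGAGTCAtcgcgcgctctggggc
EIF3J and EIF4G1, which also hold TGACTCA, did not pass the test for pH at either time, except EIF4G1 at 6 h after correction for gene length (0.24, adjusted p = 0.0122). Of the other members with TGACGT, EIF4A1 was called higher at both times, EIF4E3 higher and EIF3D lower at 3 h only. EIF5A was called higher at 6 h only and EEF2 at neither time. Whether these motifs have a part in the changes was not tested.

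The other scanning factors moved less, and in both directions. EIF1, which guards against starts at the wrong codon, read 352, 337 and 292 CPM in Con3 and 259, 194 and 244 CPM in Treat3. At 6 h its groups overlapped, at 370.3, 430.0 and 318 CPM in Con6 and 339, 400.0 and 409 CPM in Treat6. EIF1 was thus lower at 3 h alone (-0.49 ± 0.12, adjusted p = 0.00714, and 0.0516 without Con3 library 1), with 0.04 ± 0.12 at 6 h. Its copy EIF1B changed by -0.53 ± 0.15 at 3 h (adjusted p = 0.0164), a call that was lost without Con3 library 1 or 2 or Treat3 library 2 or 3 (adjusted p up to 0.0735). EIF1AD, a nuclear protein with an eIF1A-like domain, read 27.6, 27.5 and 29.6 CPM in Con6 and 19.0, 16.9 and 15.4 CPM in Treat6 (-0.73 ± 0.11, adjusted p = 2e-05). EIF6 keeps the large subunit from joining too early and is needed to make that subunit. It read 86.6, 90.1 and 74.2 CPM in Con6 and 122, 108 and 111 CPM in Treat6, with no overlap (0.45 ± 0.10, adjusted p = 0.000816). EIF1AX, which works beside eIF1 in scanning, rose by 0.36 ± 0.09 at 6 h (adjusted p = 0.00169). EIF5B did not pass at either time, with 0.26 ± 0.10 (adjusted p = 0.0584) at 3 h and 0.23 ± 0.10 (adjusted p = 0.0526) at 6 h.

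**Figure D3:**
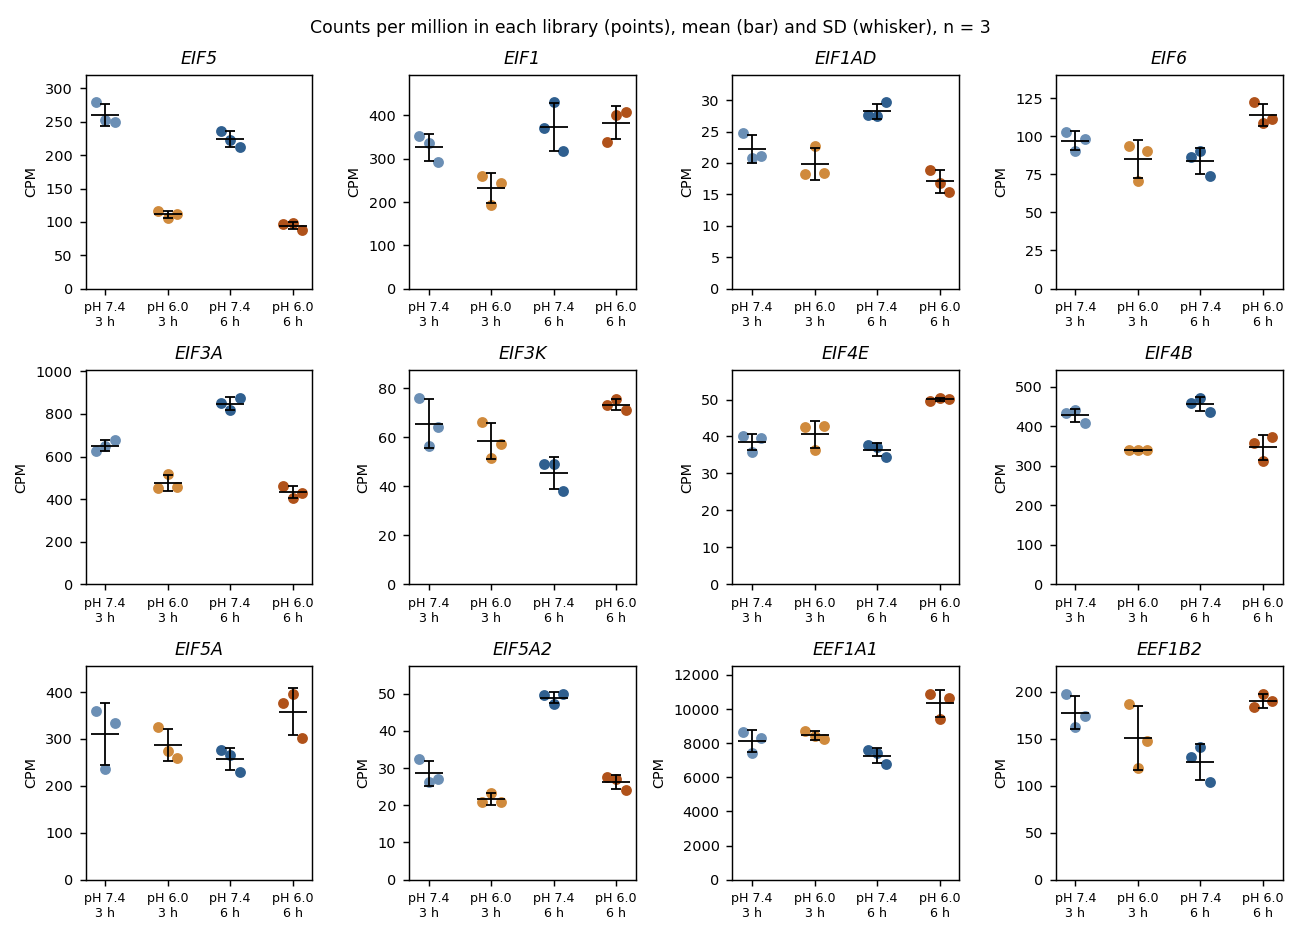
CPM of 12 factors in each library (points), with the mean (bar) and SD (whisker) of the 3 libraries of each group and axes that start at 0. EIF5 is lower at pH 6.0 at both times, EIF3A and EIF5A2 differ more at 6 h, and for EIF3K, EIF4E, EIF6, EEF1A1 and EEF1B2 the pH groups overlap at 3 h and not at 6 h.

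The subunits of eIF2 did not move together. EIF2S2, the beta subunit to which eIF5 binds, was lower at both times, by -0.32 ± 0.08 (adjusted p = 0.00777) at 3 h and -0.27 ± 0.08 (adjusted p = 0.0067) at 6 h. The alpha subunit EIF2S1, the one phosphorylated under stress, read 108, 105 and 100.1 CPM in Con6 and 139, 134 and 122 CPM in Treat6, which did not overlap (0.34 ± 0.08, adjusted p = 0.00122). The gamma subunit EIF2S3, which holds GTP and the tRNA, changed by 0.29 ± 0.09 at 6 h (adjusted p = 0.011). The tRNA-binding factor EIF2A changed by 0.29 ± 0.09 at 6 h as well (adjusted p = 0.0149). Neither EIF2S1 nor EIF2S3 passed at 3 h. Of these calls at 6 h that of EIF2S2 was lost without Treat6 library 2 or 3 (adjusted p up to 0.0742), that of EIF2S3 without Con6 library 2 (0.0598) and that of EIF2A without Con6 library 2 or 3 (up to 0.0646).

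eIF2B, the exchange factor that recharges eIF2 with GTP, had 2 of 5 subunits lower at 3 h and 2 of 5 higher at 6 h. Of all genes tested, 9.26% were called lower at 3 h and 21.9% higher at 6 h. The lower subunits were EIF2B2 (-0.34 ± 0.10, adjusted p = 0.0219) and EIF2B4 (-0.37 ± 0.10, adjusted p = 0.016), and the higher subunits EIF2B1 (0.24 ± 0.09, adjusted p = 0.0338) and EIF2B3 (0.45 ± 0.17, adjusted p = 0.0297). EIF2B3 read 9.83, 7.79 and 7.42 CPM in Con6 and 13.5, 11.8 and 8.87 CPM in Treat6, so that its groups overlapped. None of these 4 calls was firm. EIF2B2 lost its call without Con3 library 1 or 3 or Treat3 library 2 or 3 (adjusted p up to 0.0845) and EIF2B4 without Con3 library 1 or Treat3 library 1 (up to 0.0659). EIF2B1 lost its call without Con6 library 2 or 3 or Treat6 library 2 (up to 0.145) and EIF2B3 without Con6 library 2 or 3 or Treat6 library 1 or 2 (up to 0.119). The catalytic subunit EIF2B5 passed at neither time.

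eIF3 is the largest initiation factor and bridges the small subunit and the cap complex. Its scaffold subunit EIF3A was lower at pH 6.0 while several other subunits were higher at 6 h. EIF3A (ENSG00000107581, chromosome 10) read 628, 648 and 677 CPM in Con3 and 452, 518 and 458 CPM in Treat3. At 6 h it read 853, 817 and 875 CPM in Con6 and 463, 405 and 427 CPM in Treat6. The pH groups were apart at both times, and Con6 also stood above Con3. The log2 fold change was -0.45 ± 0.08 at 3 h (adjusted p = 0.000459) and -0.97 ± 0.08 at 6 h (adjusted p = 1.94e-09), and these effects differed by -0.52 ± 0.11 (adjusted p = 0.0017).

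Of the 14 eIF3 genes, 3 were lower and none higher at 3 h, while at 6 h 5 were higher and EIF3A alone was lower. Of all genes tested, 9.26% were called lower and 9.53% higher at 3 h, and 21.9% higher and 25.1% lower at 6 h. EIF3K, a small subunit at the edge of the complex, read 76.1, 56.5 and 64.4 CPM in Con3 and 66.2, 51.7 and 57.2 CPM in Treat3, which overlapped. At 6 h it read 49.1, 49.2 and 38.0 CPM in Con6 and 73.0, 75.8 and 71.2 CPM in Treat6, which did not (0.69 ± 0.12, adjusted p = 4.99e-05). EIF3H, a subunit with an MPN domain, changed by 0.50 ± 0.08 at 6 h (adjusted p = 4.46e-05), from 135 to 160 CPM in Con6 to 194 to 222 CPM in Treat6. EIF3E, also called INT6, was higher by 0.43 ± 0.09 (adjusted p = 0.000345). EIF3I (0.35 ± 0.11, adjusted p = 0.00985) and EIF3M (0.24 ± 0.08, adjusted p = 0.0159) were called too, but not without Con6 library 3 (adjusted p = 0.0632 for EIF3I and 0.125 for EIF3M), and EIF3I not after correction for gene length (0.0807). The RNA-binding subunits EIF3D (-0.29 ± 0.08, adjusted p = 0.0152) and EIF3G (-0.31 ± 0.09, adjusted p = 0.0251) were lower at 3 h, and both lost that call without Con3 library 1 or Treat3 library 2 or 3, EIF3G also without Con3 library 3 (adjusted p up to 0.0927 for EIF3D and 0.16 for EIF3G). EIF3B, the other large scaffold subunit, passed in no comparison.

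Among the eIF4 factors the cap-binding protein and the helicases were higher at pH 6.0 at 6 h, while the helicase helper EIF4B and the transporter EIF4ENIF1 were lower. EIF4E read 40.02, 35.9 and 39.6 CPM in Con3 and 42.7, 36.4 and 42.8 CPM in Treat3, which overlapped (0.08 ± 0.09). At 6 h it read 37.7, 37.1 and 34.4 CPM in Con6 and 49.6, 50.4 and 50.1 CPM in Treat6 (0.46 ± 0.09, adjusted p = 0.00021). The 3 libraries of Treat6 were thus nearly equal and all above the other 9. The helicase genes followed at 6 h, with EIF4A2 at 0.58 ± 0.09 (adjusted p = 2.71e-05) and EIF4A3, which belongs to the exon junction complex, at 0.49 ± 0.10 (adjusted p = 0.00037). EIF4A2 read 317, 313 and 299 CPM in Con6 against 441, 422 and 527 CPM in Treat6. EIF4A3 read 76.2, 78.0 and 69.5 CPM in Con6 and 108, 112 and 94.6 CPM in Treat6. In Con3 EIF4A3 read 106, 86.0 and 94.2 CPM, so that Treat6 overlapped Con3 and Con6 lay below it. The low counts of EIF4A1 rose at both times, from 3.62, 3.34 and 3.58 CPM in Con3 to 7.15, 6.59 and 6.32 CPM in Treat3, and from 4.01, 2.58 and 3.65 CPM in Con6 to 7.74, 11.3 and 10.9 CPM in Treat6. That was a log2 fold change of 0.93 ± 0.19 at 3 h (adjusted p = 0.00139) and 1.56 ± 0.18 at 6 h (adjusted p = 4.76e-07), in the part of its reads that the authors' counting assigned to it.

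EIF4B, which stimulates eIF4A, was lower at both times without overlap. It read 433, 440.1 and 407 CPM in Con3 against 338, 339 and 340.2 CPM in Treat3 (-0.33 ± 0.08, adjusted p = 0.00516), and 459, 471 and 437 CPM in Con6 against 357, 311 and 371 CPM in Treat6 (-0.40 ± 0.08, adjusted p = 0.000251). EIF4ENIF1, also called 4E-T, carries eIF4E into the nucleus and to sites of mRNA decay. It read 8.37, 7.74 and 6.996 CPM in Con6 and 3.80, 4.25 and 4.78 CPM in Treat6 (-0.85 ± 0.17, adjusted p = 0.000264), whereas at 3 h it had -0.16 and its groups overlapped. EIF4G1, the main scaffold that joins eIF4E, eIF4A and eIF3, passed at neither time, with 0.12 ± 0.09 (adjusted p = 0.325) at 3 h and 0.04 ± 0.09 (adjusted p = 0.703) at 6 h. After correction for gene length EIF4G1 was called higher at 6 h, with 0.24 (adjusted p = 0.0122).

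The remaining eIF4 calls were small and depended on the setting. EIF4G3 was called higher at 3 h (0.24 ± 0.08, adjusted p = 0.0362) and lost the call in 9 of 20 settings, the ones without Con3 library 1 or 3, Con6 library 1 or Treat3 library 2 or 3 among them (adjusted p up to 0.191). The cap-binding relative EIF4E3 was called higher at 3 h (0.36 ± 0.10, adjusted p = 0.019), though not without Con3 library 1 (0.0963) or Treat3 library 2 (0.107). EIF4E2, which represses mRNAs at the cap, was called lower at 3 h (-0.26 ± 0.09, adjusted p = 0.0426) and lost the call in 11 settings, among them those without any 1 library of Con3 or Treat6, Con6 library 1 or Treat3 library 2 or 3 (adjusted p up to 0.168). EIF4H was called higher at 6 h (0.24 ± 0.08, adjusted p = 0.0208), though not without Con6 library 1 or 3 (up to 0.128). EIF4G2 was called lower at 6 h (-0.20 ± 0.08, adjusted p = 0.0419), lost the call in 13 settings, among them those without Con3 library 3, any Con6 library, Treat3 library 1 or 3 or any Treat6 library (adjusted p up to 0.221), and had 0.04 (adjusted p = 0.671) after correction for gene length.

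The 2 eIF5A genes went apart at 6 h. EIF5A2, the copy with narrow tissue expression, read 32.5, 26.2 and 27.1 CPM in Con3 and 20.8, 23.4 and 20.8 CPM in Treat3 (-0.40 ± 0.10, adjusted p = 0.00843, and 0.0738 without Con3 library 1). At 6 h it read 49.7, 47.2 and 50.1 CPM in Con6 and 27.6, 26.9 and 24.1 CPM in Treat6 (-0.90 ± 0.10, adjusted p = 1.88e-07). Each library of Con6 stood above all 9 others, and Treat6 overlapped Con3. EIF5A, the common copy, read 276, 266 and 230.1 CPM in Con6 and 377, 397 and 301 CPM in Treat6 (0.48 ± 0.15, adjusted p = 0.0152), a call that was lost without Con6 library 3 (0.0614) and after correction for gene length (0.0858). The ratio of EIF5A to EIF5A2 per length was 39.7 in Con3, 48.8 in Treat3, 19.4 in Con6 and 50.3 in Treat6. The difference at 6 h, 1.38 on the log2 scale, had p = 0.1 in an exact two-sided permutation test of 3 libraries against 3, which is the smallest p that design can give, and 0.187 after adjustment over the 28 comparisons of 7 pairs of related genes.

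CACGTG, the E-box to which the transcription factor MYC and its relatives bind, was searched on either strand of the start windows. The motif was found for 11 members, in 11 of their 66 windows (16.7%), and in 7.26% of all windows. It is shown for EIF4E, a known MYC target that was higher at pH 6.0 at 6 h, and EIF5A2, which was lower, because each held a pair of them. MYC itself (ENSG00000136997) read 193 ± 7.43 CPM in Con3, 60.3 ± 10.7 in Treat3, 201 ± 3.58 in Con6 and 24.5 ± 1.65 in Treat6 (SD, n = 3). The matches of EIF4E lie on the minus strand at chr4:98929341-98929370 and chr4:98929188-98929217, and the stretch of EIF5A2 lies on the minus strand at chr3:170908694-170908887, with the E-boxes in capitals.
EIF4E first match: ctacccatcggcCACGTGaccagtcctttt
EIF4E second match: ggacatatccgtCACGTGgccagaagctgg
EIF5A2: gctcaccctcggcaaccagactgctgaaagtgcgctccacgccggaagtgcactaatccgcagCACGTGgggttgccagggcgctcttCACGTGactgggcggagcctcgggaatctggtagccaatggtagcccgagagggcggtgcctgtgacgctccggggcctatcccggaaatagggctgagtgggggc
At 6 h the 11 members with an E-box, all tested, had 5 higher and 2 lower, where 21.9% of all genes tested were called higher and 25.1% lower. Their median log2 fold change was 0.20, which is also the median of all 57 factors. After correction for gene length these medians were 0.31 and 0.21. Whether MYC has a part in the changes of these factors was not tested.

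Of the elongation factors, EEF1A1 and EEF1B2 rose at 6 h and EEF2 passed in no comparison. EEF1A1 (ENSG00000156508, chromosome 6) read 8665, 7410.0 and 8323 CPM in Con3 and 8709.5, 8435 and 8222 CPM in Treat3, which overlapped (0.06 ± 0.09, adjusted p = 0.722). At 6 h it read 7621, 7412 and 6793 CPM in Con6 and 10910.4, 9416 and 10668 CPM in Treat6 (0.51 ± 0.09, adjusted p = 0.000132). EEF1B2, a subunit of the eEF1A exchange factor, read 131, 141 and 104 CPM in Con6 and 183, 198 and 189.8 CPM in Treat6. These did not overlap (0.60 ± 0.14, adjusted p = 0.00251), after -0.24 at 3 h. In Con3 it read 197, 162 and 174 CPM, so that Treat6 overlapped Con3 and Con6 lay below it. EEF1D, another exchange subunit, was called at 3 h (-0.25 ± 0.08, adjusted p = 0.0269), but not without Con3 library 1 or 3 or Treat3 library 2 or 3 (up to 0.153). EEF2 read 2464 to 2827 CPM in Con3, 2698 to 2993 in Treat3, 2856 to 2935 in Con6 and 3195 to 3322 in Treat6. The highest 3 libraries for EEF2 were those of Treat6, but the difference at 6 h (0.16 ± 0.08) had an adjusted p of 0.113, which fell to between 0.0274 and 0.0475 in 4 of the 20 settings.

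The enzymes that modify elongation factors had no call at 3 h. The lysine methyltransferases of eEF1A EEF1AKMT2 (0.77 ± 0.26, adjusted p = 0.0212) and EEF1AKMT3 (0.66 ± 0.21, adjusted p = 0.0131) were called higher at 6 h. Both are low in these cells. EEF1AKMT2 lost its call without Con6 library 2 or Treat6 library 1 or 3 (up to 0.0727) and EEF1AKMT3 without Con6 library 3 or Treat6 library 3 (up to 0.0769). EEF1AKMT3 also shares 19.1% of its exonic bases with METTL1. The eEF2 kinase EEF2K, which stops elongation under energy stress by phosphorylating eEF2, did not pass for pH, with 0.16 ± 0.10 (adjusted p = 0.271) at 3 h and 0.14 ± 0.10 (adjusted p = 0.301) at 6 h, although correction for gene length gave a called 0.31 at 6 h (adjusted p = 0.0115).

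Time in saline was compared within each pH. These comparisons use the same libraries as those of pH, so they describe the same values from another side. From 3 h to 6 h, 7 factors rose and 8 fell at pH 7.4, where 31.6% of all genes tested were called, 17.2% higher and 14.4% lower. At pH 6.0, 12 rose and 3 fell, where 19.5% were called, 8.64% higher and 10.9% lower. The factor median was -0.08 at pH 7.4 and 0.22 at pH 6.0, against -0.02 over all genes in both. Scaled to total counts alone, 5 rose and 16 fell at pH 7.4, and 5 rose and 4 fell at pH 6.0. With that scaling 2093 of all genes rose and 3179 fell at pH 7.4, and 773 rose and 2499 fell at pH 6.0. The factor medians were then -0.16 and 0.13, against -0.09 and -0.10 over all genes. The 8 lower at pH 7.4 became 4 without Con3 library 1, 15 without Con3 library 2 and 5 without Con6 library 3. Over all genes the 2247 lower became 1308, 2173 and 1271 in the same order. The 12 higher at pH 6.0 became 19 without Con3 library 1 or 2 and 21 without Treat3 library 1. They became 5 without Treat3 library 2 and 6 without Treat3 library 3 or Treat6 library 1. Over all genes the 1351 higher became 1567, 1581, 1898, 894, 801 and 981 as these libraries were left out in turn. After correction for gene length 22 factors rose and 2 fell at pH 6.0, and 2174 of all genes rose and 1453 fell.

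EEF2K changed most evenly with time. It read 43.7, 50.3 and 48.9 CPM in Con3 and 30.9, 26.4 and 28.9 CPM in Con6 (-0.73 ± 0.10, adjusted p = 1.42e-05). At pH 6.0 it read 50.8, 53.2 and 55.5 CPM in Treat3 and 28.1, 30.0 and 36.6 CPM in Treat6 (-0.75 ± 0.10, adjusted p = 1.15e-05), so that all libraries at 6 h lay below all at 3 h. EIF4G2, which drives initiation without the cap on some mRNAs, rose at pH 7.4 from 1450.1, 1471 and 1487 CPM in Con3 to 2024, 2023 and 2085 CPM in Con6 (0.48 ± 0.08, adjusted p = 9.7e-05). At pH 6.0 EIF4G2 changed by 0.26 ± 0.08 (adjusted p = 0.0256), which was lost with total counts (0.17, adjusted p = 0.130) and without Treat3 library 3 or Treat6 library 1 (up to 0.0966). EIF2S2 rose at both, by 0.29 ± 0.08 (adjusted p = 0.00834) and 0.33 ± 0.08 (adjusted p = 0.00524). EIF5 was called lower with time at pH 7.4 (-0.22 ± 0.08, adjusted p = 0.0353) and pH 6.0 (-0.24 ± 0.08, adjusted p = 0.0383). These calls were lost in 4 and 12 of the 20 settings. At pH 7.4 these included leaving out Con3 library 1 or Con6 library 2 or 3 (adjusted p up to 0.173), and at pH 6.0 Con3 library 3, Con6 library 1 or 2, Treat3 library 1 or 3 or any Treat6 library (up to 0.219).

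Other factors moved with time at 1 pH. EIF5A2 (0.77 ± 0.10, adjusted p = 4.65e-06), EIF3A (0.38 ± 0.08, adjusted p = 0.000973) and EIF4G3 (0.38 ± 0.08, adjusted p = 0.000779) rose at pH 7.4 in every setting, and at pH 6.0 they had 0.28, -0.14 and 0.04 without a call. EIF2B1 fell at pH 7.4 (-0.41 ± 0.09, adjusted p = 0.00175). At pH 6.0 EIF1 rose (0.72 ± 0.12, adjusted p = 0.000238), EIF6 rose (0.42 ± 0.10, adjusted p = 0.00423) and EIF4ENIF1 fell (-0.77 ± 0.17, adjusted p = 0.00248). EIF3K alone was called in opposite directions, lower at pH 7.4 (-0.53 ± 0.11, adjusted p = 0.00145) and higher at pH 6.0 (0.33 ± 0.11, adjusted p = 0.0488), the second of which was lost in 8 settings, among them those without Con3 library 3, Con6 library 1, Treat3 library 2 or 3 or any Treat6 library (up to 0.201).

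**Figure D4:**
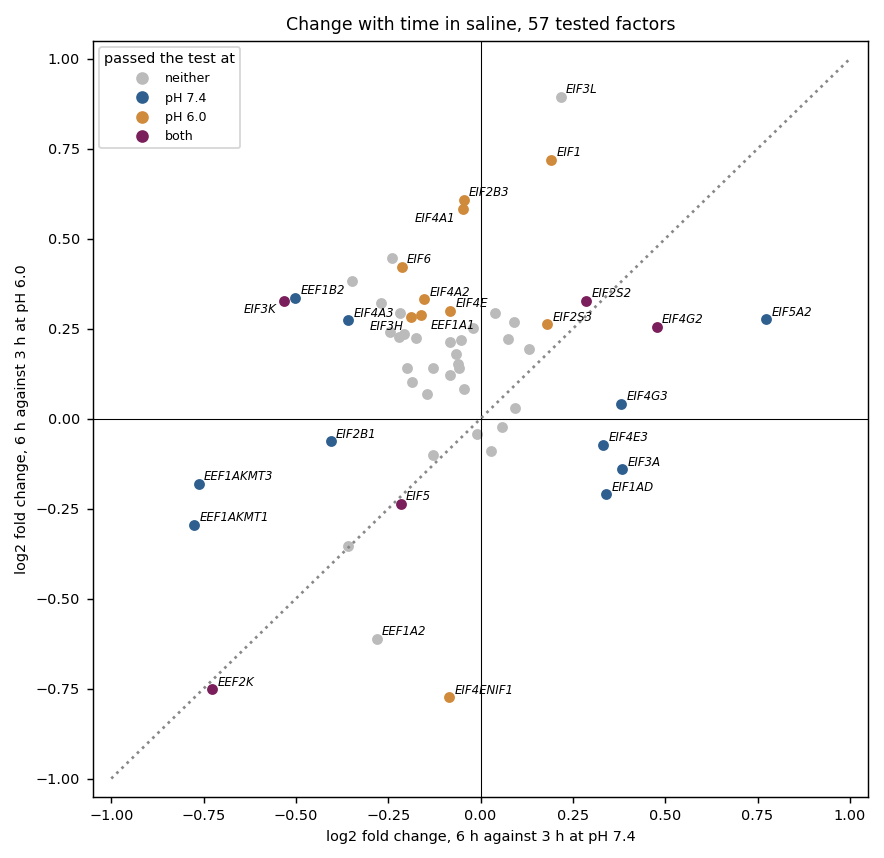
Log2 fold change from 3 h to 6 h at pH 7.4 (horizontal) and at pH 6.0 (vertical) for the 57 tested factors, coloured by the pH at which they passed the test, with a dotted line where both are equal. EEF2K (-0.73 and -0.75) lies near that line, while EIF3K (-0.53 and 0.33) and EIF3A (0.38 and -0.14) lie far from it.

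The pH effect itself differed between 6 h and 3 h for 23 factors, 17 with a more positive and 6 with a more negative effect at 6 h, where 29.4% of all genes tested were called, 13.1% more positive and 16.3% more negative. The median of the difference was 0.27 over the factors and -0.03 over all genes. It was largest for EIF3K (0.86 ± 0.16, adjusted p = 0.00063), EEF1B2 (0.84 ± 0.20, adjusted p = 0.00585), EIF6 (0.64 ± 0.14, adjusted p = 0.00199) and EIF4A3 (0.63 ± 0.14, adjusted p = 0.00234) among the calls that held in every setting. The negative call that held in every setting was that of EIF3A. Counts were 9 higher and 3 lower without Con3 library 1 and 9 and 4 without Con6 library 3 or Treat3 library 2. They were 11 and 3 without Treat3 library 3, 13 and 3 without Treat6 library 2, and 14 and 2 without Treat6 library 3. After correction for gene length they were 14 and 2. Without these libraries, in the same order, all genes gave 1508 and 1970, 1479 and 1978, 1570 and 2003, and 1582 and 2011. For the Treat6 libraries they gave 1888 and 2043, and 1880 and 1988, from 2048 and 2541 with all libraries. The correction for gene length gave 2013 and 1533 over all genes.

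Gene length moved with these changes in all genes as well as in the factors. Across the 57 factors, Spearman's rho between gene length and log2 fold change was 0.27 for pH at 3 h, -0.24 for pH at 6 h and -0.48 for the difference between them, against 0.13, -0.27 and -0.32 across all 15630 genes, in a description in which all genes share the same libraries. With the length trend of each library removed, 24 factors were higher and 9 lower at 6 h, and the factor median was 0.21. Over all 15630 genes 3786 were then higher and 3440 lower, with a median of 0.036. EIF5, EIF3A and EIF5A2, with lengths of 5945, 5472 and 5593 bases, kept their calls as lower at 6 h. For the differences between times of EIF4E3, EIF4G3 and EIF5A2 the corrected values were -0.10, -0.04 and -0.24, with adjusted p of 0.617, 0.793 and 0.246.

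**Figure D5:**
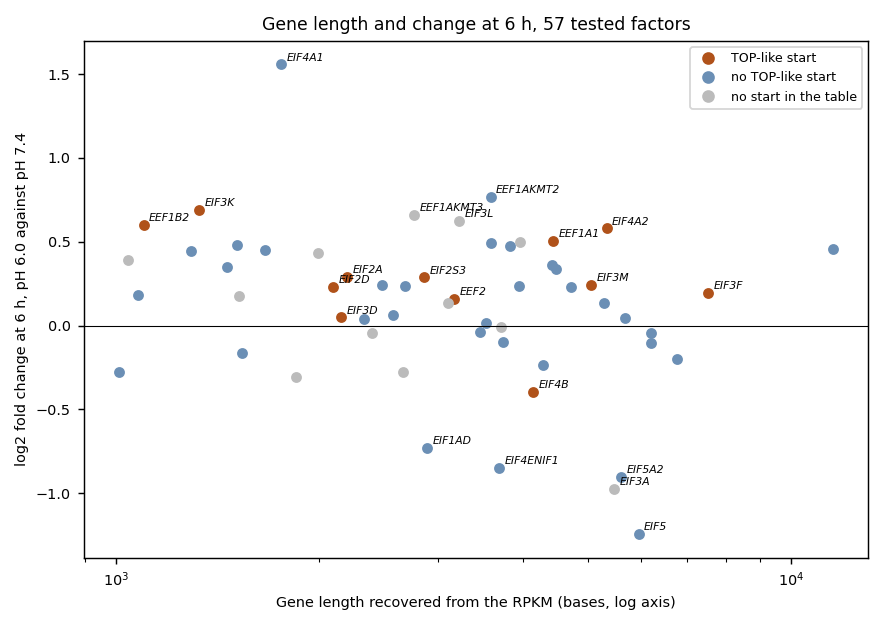
Log2 fold change at 6 h, pH 6.0 against pH 7.4, by gene length (bases, log axis) for the 57 tested factors, coloured by whether the RefSeq start is TOP-like. Of the 12 tested factors with a TOP-like start 11 lie above 0 and EIF4B below. EIF5 (5945 bases) and EIF3A (5472) are among the lowest values, while the longest gene, EIF4E (11523), and EIF3F (7540) lie above 0.

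Members with a TOP-like start were compared with the rest as a description. At 6 h, 7 of the 12 tested were higher and 1, EIF4B, lower, with a median of 0.27. Among the 33 others with a RefSeq start 12 were higher and 5 lower, with a median of 0.14. Of all genes tested, 21.9% were called higher and 25.1% lower at 6 h. The median gene length was 3011 bases in the first group and 3593 in the second, and the medians after correction for length were 0.34 and 0.21. At 3 h the first group had none higher and 2 lower, where 9.53% of all genes tested were called higher and 9.26% lower. Of 9 factors long known as TOP mRNAs 8 were tested, and at 6 h 4 of them (EEF1A1, EEF1B2, EIF3E and EIF3H) were higher and EIF4B lower, with a median of 0.31. TPT1, a TOP mRNA outside the translation factors, was higher at 6 h too (0.59 ± 0.09, adjusted p = 7.95e-06).

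Of 44 other genes of the pathway 42 were tested. At 3 h 4 were higher and 5 lower, where 9.53% of all genes tested were called higher and 9.26% lower. At 6 h 9 were higher and 16 lower, where 21.9% of all genes tested were called higher and 25.1% lower. PPP1R15A, the stress-induced phosphatase subunit that removes phosphate from eIF2, had the largest change at 6 h, from 209 ± 4.78 CPM in Con6 to 501 ± 28.9 in Treat6 (SD, n = 3; log2 1.26, adjusted p = 1.69e-11). At 6 h MCTS1, a factor of reinitiation, was higher at pH 6.0 (0.86), and both eRF3 genes, whose product releases the finished protein, were lower (GSPT2 by 1.10 and GSPT1 by 0.62 on the log2 scale). RPTOR, a subunit of the mTOR complex that acts on eIF4E through its inhibitors, was lower by 0.76, and PDCD4, an inhibitor of eIF4A, by 0.58. In Con3, Treat3, Con6 and Treat6 the mean CPM was 271, 245, 386 and 251 for GSPT1 and 32.8, 32.5, 48.8 and 28.9 for RPTOR. In the same order PDCD4 had 139, 130, 189 and 126, GSPT2 15.7, 11.9, 16.5 and 7.67, and MCTS1 43.1, 40.7, 32.3 and 58.8. GSPT1, RPTOR and PDCD4 were thus also higher in Con6 than in Con3. At 3 h DOHH, which completes the hypusine of eIF5A, fell by 0.82 (adjusted p = 0.000266). ATF4, the transcription factor made when eIF2 is phosphorylated, had a mRNA change of -0.61 ± 0.08 at 3 h (adjusted p = 1.91e-05) and -0.19 ± 0.08 at 6 h (adjusted p = 0.0695).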

How the data were processed

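RNA was measured in 12 libraries in 4 groups of 3. Read counts per gene were made by the authors and deposited for 48162 genes. The submitters' processing notes name STAR and CASAVA and the build hg19, and the versions, the gene annotation and the counting program are not stated. The values that the authors deposited per library were taken as RPKM made from these counts, since 1 length per gene gave back 100.0% of them from the counts within a relative tolerance of 1e-06, while the headers name no unit. These RPKM were used for levels between genes. Names, biotypes and exon overlap came from GENCODE 29, and start windows from RefSeq on GRCh38.p14. No coordinates on the authors' build were used.

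The test was edgeR's robust quasi-likelihood F test on the counts (edgeR 4.0.16, R 4.3.3), scaled with TMM factors (0.954 to 1.06), on the 15630 genes that passed its default filter. All 12 libraries entered as 4 groups, leaving 8 degrees of freedom, p-values were adjusted by Benjamini-Hochberg over all genes tested, and genes under 0.05 were called. The SE was taken from the log2 fold change and its F (their ratio, with F under a square root). CPM use TMM-scaled totals. The procedure was tested on simulated counts of the 15630 genes for pH at 6 h, where it called 61.19% of 67 genes changed 1.5-fold, 77.61% of 67 changed 2-fold and 93.94% of 66 changed 4-fold, with 13 false calls. No other genes were changed there, and none of those lowest in level, while in the data 47% of all genes tested were called at 6 h. These shares therefore need not hold for the data. No library repeated another of its group, as pairs gave a chi-square of at least 5.40 per degree of freedom.

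The 20 alternatives were DESeq2 1.42.0, median-of-ratios factors, total counts, no filter, 5 CPM in 3 libraries, a replicate block, only the groups compared, correction for gene length (natural spline with 5 degrees of freedom per library) and each of 12 libraries left out in turn. The difference between times had 19, since it needs all groups. Named were, for each comparison, up to 6 higher and 6 lower factors by size among those called, and 11 fixed factors for pH, with other members given where their role is described. The members and lists were chosen with earlier results of these data known.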

Additional observations from a re-analysis of the deposited data

Results flagged for a closer look

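The results below were set apart because the pH effect at 6 h differed from that at 3 h by a test of the difference itself (edgeR's quasi-likelihood test, Benjamini-Hochberg adjusted p under 0.05). Values are log2, the effect at 6 h minus the effect at 3 h, and no cause was tested. The differences of 10 factors held in all 19 alternatives. They were 0.86 for EIF3K, 0.84 for EEF1B2, 0.64 for EIF6, 0.63 for EIF4A3, 0.48 for EIF3G, 0.48 for EIF4A2, 0.47 for EIF3H, 0.45 for EEF1A1, 0.45 for EIF3E and -0.52 for EIF3A.

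The calls of 13 others were lost in at least 2 alternatives. The positive differences among them were 0.65 for EIF2B3, 0.59 for EIF5A, 0.53 for EIF1, 0.40 for EIF3I, 0.38 for EIF4E, 0.34 for EIF2B1, 0.34 for EIF3D and 0.29 for EIF2S1. The negative ones were -0.69 for EIF4ENIF1, -0.55 for EIF1AD, -0.50 for EIF5A2, -0.40 for EIF4E3 and -0.34 for EIF4G3. EIF3A, EIF1AD, EIF5A2, EIF4E3 and EIF4G3 also rose between 3 h and 6 h at pH 7.4, while EIF3K, EEF1B2, EIF4A3 and EIF2B1 fell there, in the control saline. Of these changes with time, that of EIF4E3 was not called in 5 of 20 alternatives (adjusted p up to 0.314), namely with total counts, after length correction (0.13) and without Con3 library 1, Con6 library 1 or Con6 library 3. That of EIF1AD was not called in 4 (up to 0.0960), with total counts and without Con3 library 2, Con3 library 3 or Con6 library 3. Those of EEF1B2 (up to 0.0894) and EIF4A3 (up to 0.0715) were not called without Con3 library 1 or without Con6 library 3.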

How the results depend on the processing

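Counts of called factors at 6 h stayed within 1.5 times in all 20 alternatives. Those below did not, and the cause was not tested. The 3 higher at 3 h became 5 with the filter of 5 CPM. The 8 lower with time at pH 7.4 became 16 with total counts and 13 with no filter. The 12 higher with time at pH 6.0 became 5 with total counts, 19 with DESeq2, 20 with no filter and 22 with length correction. The 6 with a more negative pH effect at 6 h than at 3 h became 3 with no filter and 2 with length correction. Over all genes the higher at 3 h went from 1489 to 1474 with the filter of 5 CPM. The lower with time at pH 7.4 went from 2247 to 3179 with total counts and 2513 with no filter. The higher with time at pH 6.0 went from 1351 to 773, 1568, 1608 and 2174 in the order above. Those with a more negative pH effect went from 2541 to 2199 and 1533. The number of genes tested differed with the filter and with DESeq2. With each library left out in turn, the higher at 3 h ranged from 1 to 4 and the lower from 4 to 16. Over all genes these ranged from 758 to 1776 and from 832 to 1841. In the same fits the lower with time at pH 7.4 ranged from 4 to 15 and the higher with time at pH 6.0 from 5 to 21. The differences between times ranged from 9 to 22 (positive) and from 2 to 6 (negative). Over all genes these ranges were 1271 to 2562, 801 to 1898, 1479 to 2647 and 1970 to 2681. Leaving out Con3 library 1 lost 27 of the 111 single results and leaving out Treat3 library 2 lost 25. Of 2196 single values, 1941 kept direction and side of the threshold, 248 lost the call, 6 gained one and 1 changed sign, EIF4G2 at 6 h, which had 0.039 after length correction (adjusted p = 0.671).

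The labels number the libraries 1 to 3 in each group. Same-numbered libraries of different groups had correlations of their deviations from -0.127 to 0.226 over 18 pairs (median 0.031). The other 36 pairs had -0.190 to 0.156. These ranges overlap, and the highest value was that of a same-numbered pair, so the correlations do not settle whether the numbers pair the libraries. With the replicate block, 23 factors were higher and 8 lower at 6 h, 3 and 14 at 3 h, and none of the 111 single results changed. Over all genes 3472 were higher and 3985 lower at 6 h with that block, and 1671 and 1560 at 3 h.

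Factors with few counts (EIF3L, EIF5AL1, EEF1A2) allowed only large changes to be called.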
